A study of Homo sapiens with 6 samples.

Results

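The anaphase-promoting complex and the proteins that switch it on and off are followed here through 10 genes, chosen by name out of the 24462 gene symbols in the count files. These genes were chosen with earlier results of these data known. They are the activators CDC20 and FZR1, the inhibitor FBXO5, the ubiquitin-conjugating enzymes UBE2C and UBE2S, and the core subunits ANAPC1, ANAPC5, ANAPC11, CDC27 and CDC16. Every one of the 10 symbols is found, each in a single entry, and all 10 pass the filter on low counts. The samples are 3 bulk RNA libraries of 1CT, labelled wild type, and 3 of 1CT-A, labelled as carrying a knockdown of APC. 1CT is an immortalized line of human colonic epithelial cells, labelled as progenitor cells. 1CT-A was derived from 1CT by lowering APC, and whether it descends from 1 clone is not given in the sources used here. Both lines are untreated and grow in the same medium, a DMEM and M199 mixture with serum, EGF, hydrocortisone, insulin, transferrin and selenite. The comparison asks how the transcripts of the complex differ between the depleted line and its parent.

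The anaphase-promoting complex is a ubiquitin ligase that marks proteins for destruction by the proteasome and so drives cells from metaphase into anaphase and out of mitosis. It works with CDC20 in mitosis and with FZR1, also called CDH1, from late mitosis through G1, while FBXO5, also called EMI1, holds it inactive from S phase until mitosis begins. It shares its abbreviation with APC, adenomatous polyposis coli, the tumor suppressor gene of the Wnt pathway that is depleted in 1CT-A, but the complex and that gene are different things.

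APC itself is counted in all 6 libraries. Its level is 49.3, 43.8 and 46.6 CPM (reads of the gene scaled to a common library total, here the total of the file) in 1CT replicates 1, 2 and 3 and 31.5, 30.0 and 34.4 CPM in 1CT-A. The groups do not overlap, and APC falls by 0.58 on the log2 scale (SE 0.09, adjusted p = 1.8e-04, edgeR quasi-likelihood test), which leaves 0.668 of the 1CT level. The 1CT libraries hold 7788679 to 8452258 counts, fewer than the 11158108 to 12602988 of the 1CT-A libraries. A level of 3 counts, below which a gene is taken as not detected, corresponds to 0.355 to 0.385 CPM in a 1CT library and 0.238 to 0.269 CPM in a 1CT-A library, and covers counting error only. Replicate 3 of 1CT stands apart from the other 1CT libraries, where its chi-square against them, divided by the degrees of freedom, is at least 7.54, and the other 4 pairs of replicates lie between 3.11 and 4.56. It is the lowest 1CT library for 4 of the 10 genes (40%) and for 40.7% of all genes tested. The labelled epithelial identity is only weakly seen in the RNA. The sum of the 5 epithelial markers is 13.3 to 17.3 CPM in 1CT but 3.23 to 7.20 CPM in 1CT-A with EPCAM at 0 in every library, and the 5 colonic markers sum to at most 0.121 CPM with VIL1 and CDX1 at 0. All 8 mesenchymal markers are counted, and their sum is 4664 to 5656 CPM in 1CT and only 4301 to 4605 CPM in 1CT-A. Of the other lists, the 4 immune markers stay at or below 1.67 CPM and the 3 endothelial markers at or below 0.514 CPM, with PTPRC, CD3E and CDH5 at 0. Both epithelial markers that pass the filter, KRT18 and KRT19, are lower in 1CT-A. The mesenchymal markers go both ways, with COL3A1 and DCN higher, VIM, COL1A1, PDGFRB and THY1 lower, and COL1A2 and LUM not passing the test (edgeR quasi-likelihood test). COL3A1 has a log2 fold change of 2.37 and PDGFRB of -0.98. The part of these markers in the results was not tested.

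Promoter sequence is shown first for 4 of the genes, since the genes of mitosis are known to share promoter elements. Whether these elements have a part in the levels reported below was not tested. The CHR element (TTTGAA, or TTCAAA on the other strand) and the CCAAT box (CCAAT, or ATTGG) are such elements, bound by the MuvB complexes and by NF-Y. RefSeq promoter windows of 300 bases, 250 before and 50 after each start site on GRCh38.p14, exist for 9 of the 10 genes, 14 windows in all, and UBE2C has no entry in the table used. The 150 bases before the start site are printed 5′ to 3′ on the gene's strand, with CHR and CCAAT letters in capitals. CDC20 and FBXO5 are shown because they are the only 2 of the 9 genes with both motifs in 1 window, FZR1 as the other activator and UBE2S as the second ubiquitin-conjugating enzyme.
CDC20, chr1:43358831-43358980, plus strand: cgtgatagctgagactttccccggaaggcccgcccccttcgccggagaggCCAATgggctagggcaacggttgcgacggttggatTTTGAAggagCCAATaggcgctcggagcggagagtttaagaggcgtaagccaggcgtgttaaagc
FBXO5, chr6:152983042-152983191, minus strand: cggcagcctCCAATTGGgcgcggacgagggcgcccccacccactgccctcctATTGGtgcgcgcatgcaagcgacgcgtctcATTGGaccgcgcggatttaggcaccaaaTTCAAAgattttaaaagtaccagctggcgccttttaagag
FZR1, chr19:3506161-3506310, plus strand: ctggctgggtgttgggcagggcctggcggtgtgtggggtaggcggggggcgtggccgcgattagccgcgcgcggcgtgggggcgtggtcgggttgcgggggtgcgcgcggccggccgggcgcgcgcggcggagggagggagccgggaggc
UBE2S, chr19:55407789-55407938, minus strand: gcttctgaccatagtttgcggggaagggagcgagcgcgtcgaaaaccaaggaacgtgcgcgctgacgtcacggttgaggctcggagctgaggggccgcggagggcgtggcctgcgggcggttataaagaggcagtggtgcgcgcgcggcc

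In the CDC20 stretch a CHR element begins 65 bases before the start site with CCAAT boxes 100 and 55 bases before it, and a further CHR element lies outside the printed stretch, 178 bases before it. The FBXO5 stretch holds a CHR element 40 bases before the start site and 4 CCAAT boxes 141, 138, 98 and 68 bases before it, of which the first pair overlaps on opposite strands. A second FBXO5 window, at the start site of a longer annotated transcript, holds neither motif. In the FZR1 and UBE2S stretches neither motif is present. Farther out, FZR1 has a CHR element 226 bases and UBE2S a CCAAT box 191 bases before the start site. Of the 14 windows, 4 hold a CHR element, 9 a CCAAT box and 2 both, and windows of 1 gene can overlap. Among 35116 windows of the same length in the table, 15.2% hold a CHR element, 34.6% a CCAAT box and 5.90% both. A match is a description of letters and not a site of binding.

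Of the 10 genes, 6 are higher in 1CT-A, 1 is lower and 3 do not pass the test (edgeR quasi-likelihood test, adjusted p under 0.05 over 12514 genes). Both ubiquitin-conjugating enzymes, the inhibitor and the mitotic activator are among the higher genes, with log2 fold changes from 0.79 to 1.33, and the 5 core subunits divide into 2 higher, 1 lower and 2 that do not pass. By the same rule 51.0% of all genes tested pass, 25.0% as higher and 26.0% as lower, so a single call is common in this comparison. The median log2 fold change is 0.53 over the 10 genes and -0.01 over all genes tested. By the thresholds that the study's methods name, a 2-fold difference with p under 0.01 before adjustment, 2 genes are called, FBXO5 and UBE2C, both higher, against 13.4% of all genes, 3.80% as higher and 9.60% as lower. In bulk samples, a change in the number of cells in a phase of the cell cycle and a change in RNA per cell cannot be told apart. The labels do not say that replicates came from separate cultures, so the p-values measure only the spread between these libraries, which may be technical.

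**Figure D1:**
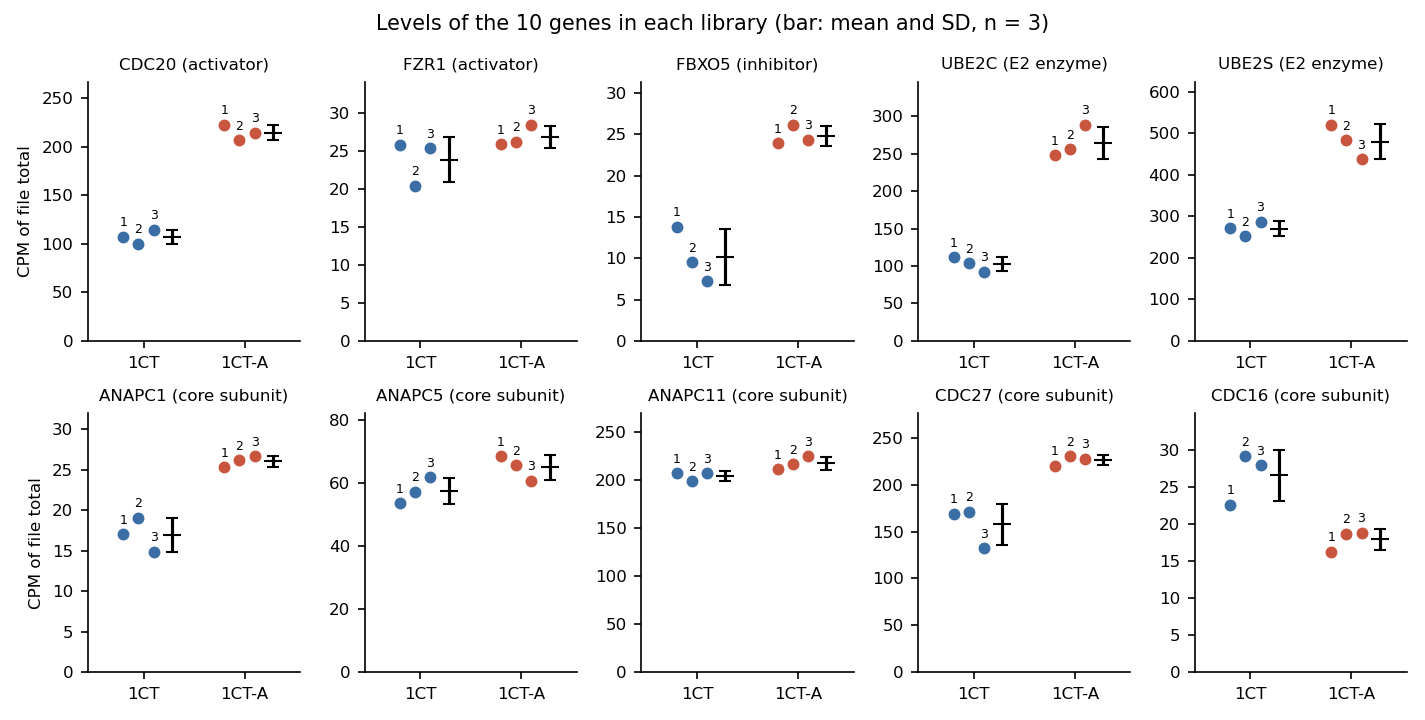
Level of each of the 10 genes in CPM of the file total (vertical axes, each from 0) in the 3 libraries of 1CT and the 3 of 1CT-A, with the replicate number beside each point and the mean with its SD (n = 3) as a bar. CDC20, FBXO5, UBE2C and UBE2S lie well apart between the lines, with FBXO5 at no more than 13.8 CPM in a 1CT library and no less than 23.9 CPM in a 1CT-A library, while FZR1, ANAPC5 and ANAPC11 are close together.

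CDC20 recruits substrates such as securin and cyclin B to the complex in mitosis and is the target of the spindle checkpoint. Its gene lies on GRCh38 at chr1:43358981-43363203 on the plus strand. Its level is 107, 100.3 and 115 CPM in the 1CT libraries and 223, 207 and 214 CPM in the 1CT-A libraries. Every 1CT-A library lies above every 1CT library, and the lowest of them is 1.80 times the highest 1CT library. CDC20 rises from 107 ± 7.16 to 215 ± 7.92 CPM (mean ± SD, n = 3), and its log2 fold change is 0.96 (SE 0.08, 95% interval 0.79 to 1.13, adjusted p = 5.3e-07, edgeR). By log2 fold change it stands at rank 561 of the 12514 genes tested.

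FZR1 takes over from CDC20 late in mitosis and keeps mitotic cyclins low through G1. It lies at chr19:3506311-3538334 on the plus strand. Its level is 25.8, 20.4 and 25.3 CPM in 1CT and 25.8, 26.2 and 28.4 CPM in 1CT-A. The lowest 1CT-A library and the highest 1CT library are at the same rounded value, and after TMM normalization the lines overlap. The log2 fold change is 0.13 (SE 0.11, 95% interval -0.11 to 0.38, adjusted p = 0.356, edgeR), so a rise of up to 1.30-fold is within the interval. Its 3′ end lies within MFSD12, which is annotated on the opposite strand. MFSD12 has mean counts of 86.0 in 1CT and 70.3 in 1CT-A. The strand setting of the counting is not given in the sources used here, so the FZR1 counts are uncertain by an unknown amount.

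FBXO5 binds the complex as a pseudosubstrate and blocks both activators until it is itself destroyed as mitosis begins. It lies at chr6:152970519-152983579 on the minus strand, and the printed stretch with 4 CCAAT boxes is inside that span, before the start site of a shorter transcript. Its level is 13.8, 9.54 and 7.19 CPM in 1CT, which are 117, 79 and 56 reads, and 23.9, 26.2 and 24.4 CPM in 1CT-A, which are 267, 298 and 307 reads. The 1CT libraries spread far more than the 1CT-A libraries, with a coefficient of variation of 33.1% where counting alone would give 10.9%, but none reaches the 1CT-A range. FBXO5 rises from 10.2 ± 3.37 to 24.8 ± 1.18 CPM, a log2 fold change of 1.24 (SE 0.17, 95% interval 0.86 to 1.61, adjusted p = 6.5e-05, edgeR). It runs from 1.06 without 1CT replicate 3, the lowest of the libraries, to 1.52 when another library is left out.

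UBE2C, also called UBCH10, places the first ubiquitins on substrates of the complex. It lies at chr20:45812576-45816957 on the plus strand. Its level is 112, 103 and 92.3 CPM in 1CT and 248, 256 and 289 CPM in 1CT-A. The lowest 1CT-A library is 2.22 times the highest 1CT library, the widest gap among the 10 genes. UBE2C rises from 102 ± 9.72 to 264 ± 21.5 CPM, a log2 fold change of 1.33 (SE 0.09, 95% interval 1.14 to 1.51, adjusted p = 6.8e-08, edgeR), which is 2.51-fold. It has the largest log2 fold change of the 10 genes, and its interval overlaps that of FBXO5. UBE2C has 5 annotated pseudogenes, and CDC20 has 1, none of which has an entry in the files, so reads from such copies could not be told from those of the gene if they were assigned to it.

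UBE2S extends the ubiquitin chains that UBE2C begins. It lies at chr19:55399745-55407788 on the minus strand. Its level is 271, 251 and 287 CPM in 1CT and 520.2, 483 and 437 CPM in 1CT-A. All 1CT-A libraries are above all 1CT libraries, and the lowest of them is 1.52 times the highest 1CT library. UBE2S rises from 269.9 ± 17.8 to 479.8 ± 41.9 CPM, a log2 fold change of 0.79 (SE 0.08, adjusted p = 4.9e-06, edgeR), or 1.73-fold. Its 3′ end lies within the annotated span of RPL28, a ribosomal protein gene on the opposite strand that has mean counts of 2084 in 1CT and 2660 in 1CT-A. RPL28 has a log2 fold change of -0.21 (SE 0.09, adjusted p = 0.0544, edgeR). Without the strand setting, reads of UBE2S and RPL28 cannot be told apart where they overlap, and the UBE2S counts are uncertain. UBE2S also has 2 annotated pseudogenes with no entry in the files.

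**Figure D2:**
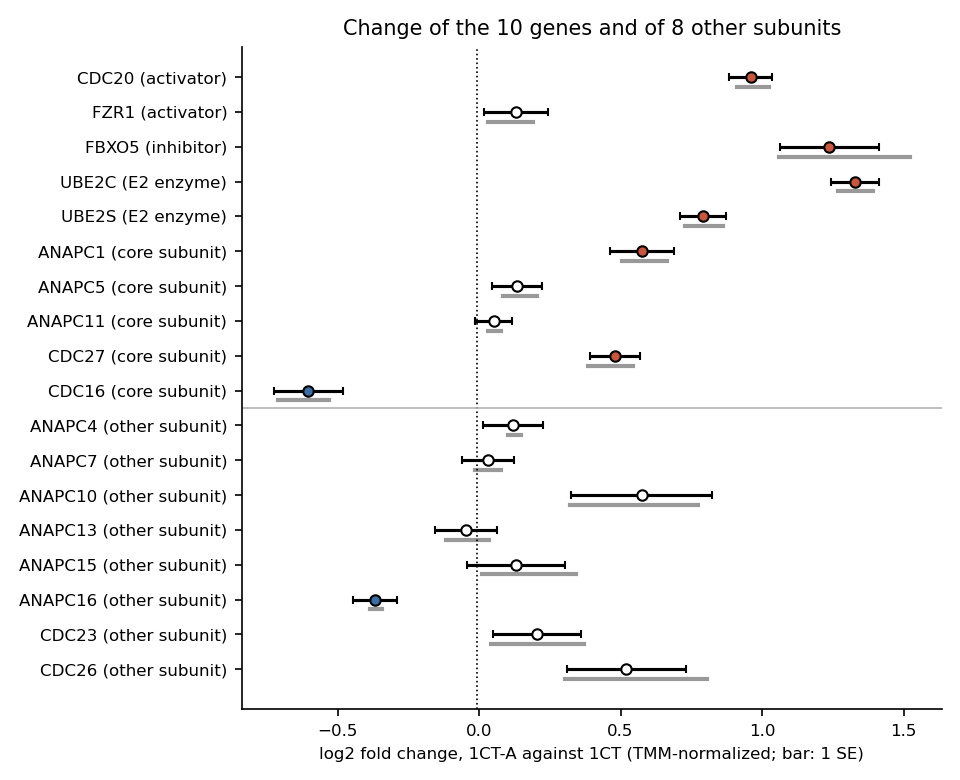
TMM-normalized log2 fold change between 1CT-A and 1CT (positive where 1CT-A is higher, horizontal axis) for the 10 genes and 8 other subunits, with 1 SE as a bar, the range over fits that leave out 1 library each as a grey line below, and the median of all genes tested as a dotted line. Filled points pass the test (red higher, blue lower), and the points of UBE2C (1.33), FBXO5 (1.24), CDC20 (0.96) and UBE2S (0.79) lie to the right of those of all subunits. The bars of UBE2S (SE 0.08) and ANAPC10 (0.58, SE 0.25) overlap.

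The core subunits form the body of the ligase. ANAPC1 is its largest scaffold subunit and lies at chr2:111611639-111884690 on the minus strand. It measures 17.0, 19.1 and 14.9 CPM in 1CT and 25.3, 26.2 and 26.7 CPM in 1CT-A. The lines are separated, and ANAPC1 rises from 17.0 ± 2.09 to 26.0 ± 0.702 CPM, a log2 fold change of 0.57 (SE 0.11, adjusted p = 9.2e-04, edgeR). There are 6 annotated pseudogene copies of ANAPC1, of which 1 has an entry in the files, with at most 2 counts in a library.

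CDC27 and CDC16 belong to the subunits with tetratricopeptide repeats, the arm of the complex that holds the activators, and they move in opposite directions. CDC27 lies at chr17:47117703-47189422 on the minus strand and measures 169, 171 and 132 CPM in 1CT and 219.9, 230.1 and 227 CPM in 1CT-A. Replicate 3 of 1CT is well below the other 1CT libraries, and all 3 lie below the 1CT-A range. CDC27 rises from 158 ± 21.8 to 226 ± 5.30 CPM, a log2 fold change of 0.48 (SE 0.09, adjusted p = 5.6e-04, edgeR), and 0.39 without 1CT replicate 3. CDC27 has 3 annotated pseudogene copies, none with an entry in the files.

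CDC16 lies at chr13:114234887-114272723 on the plus strand. Its level is 22.6, 29.1 and 27.9 CPM in 1CT and 16.2, 18.7 and 18.8 CPM in 1CT-A. Here every 1CT-A library lies below every 1CT library. CDC16 falls by 0.60 on the log2 scale (SE 0.12, adjusted p = 0.00118, edgeR), from 26.5 ± 3.45 to 17.9 ± 1.46 CPM, and it is the only 1 of the 10 genes that is lower in 1CT-A. It stays lower, by between 0.53 and 0.71, when each library is left out in turn.

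ANAPC5 and ANAPC11 do not pass the test. ANAPC5, a scaffold subunit at chr12:121308245-121399896 on the minus strand, measures 53.7, 57.4 and 61.9 CPM in 1CT and 68.6, 65.7 and 60.9 CPM in 1CT-A. The lines overlap, since 1CT replicate 3 is above 1CT-A replicate 3, and the log2 fold change is 0.14 (SE 0.09, 95% interval -0.06 to 0.33, adjusted p = 0.221, edgeR). Without 1CT replicate 3 it is 0.20 and passes the threshold, with an adjusted p of 0.0493 (edgeR). ANAPC11, the RING subunit that receives the ubiquitin-conjugating enzyme, lies at chr17:81890790-81900991 on the plus strand. It measures 207, 199 and 207 CPM in 1CT and 211, 216 and 225 CPM in 1CT-A. These values do not overlap as CPM but do after TMM normalization. Its log2 fold change is 0.05 (SE 0.07, 95% interval -0.09 to 0.19, adjusted p = 0.543, edgeR), and it takes the opposite sign, -0.0054, with upper-quartile normalization. NPB and PCYT2 are annotated over the 3′ end of ANAPC11, with mean counts of at most 1.33 and 73.7.

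In CPM of the file total, 9 of the 10 genes do not overlap between the lines, 8 higher and 1 lower, where 59.7% of all genes tested do not overlap, 31.8% higher and 27.9% lower. After TMM normalization 7 of the 10 do not overlap, against 59.1% of all genes tested. The 10 genes vary more among the 1CT libraries (median coefficient of variation 10.9%) than among the 1CT-A libraries (5.01%), and over all genes tested these medians are 11.3% and 7.95%.

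**Figure D3:**
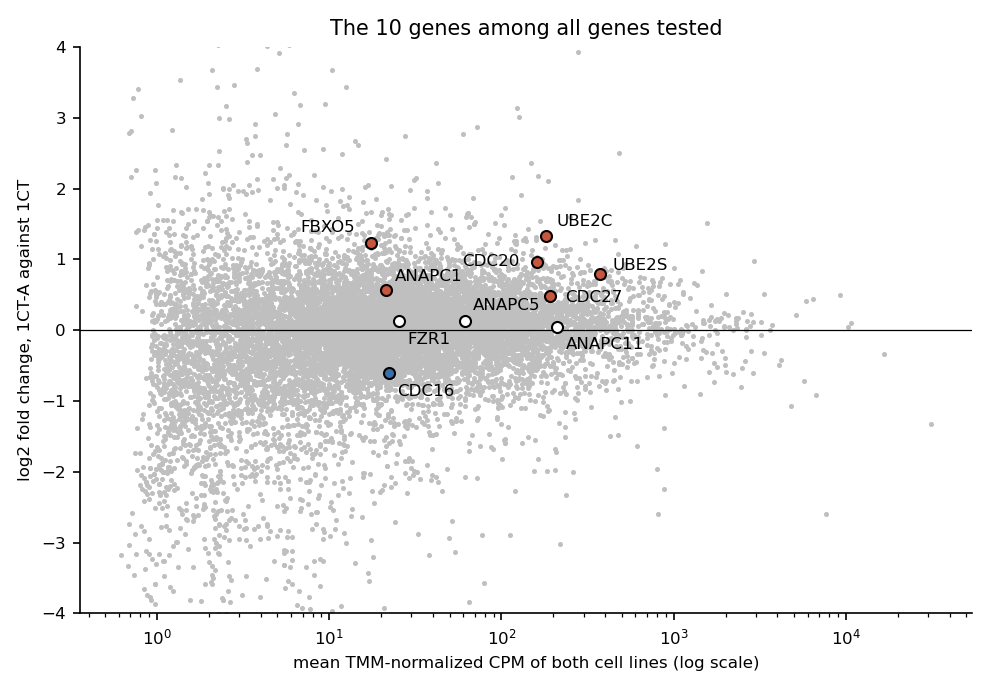
TMM-normalized log2 fold change between 1CT-A and 1CT (positive where 1CT-A is higher, vertical axis) against the mean TMM-normalized CPM of both lines (horizontal log axis) for 12514 genes in grey, with the 10 genes outlined and filled red where higher, blue where lower and white where the test is not passed. 187 genes lie beyond a log2 fold change of 4 in either direction and are not drawn. By log2 fold change UBE2C, FBXO5 and CDC20 stand at ranks 270, 324 and 561 from the top.

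Ratios within a library do not depend on how the libraries are scaled, and 6 are compared. With 3 libraries against 3, the exact two-sided permutation test cannot give a p below 0.1, so none of the 6 can pass a threshold of 0.05. The ratio of the mitotic activator to the late activator, CDC20 to FZR1, is 4.17, 4.92 and 4.53 in 1CT and 8.63, 7.91 and 7.54 in 1CT-A. The lines are separate, and the ratio is 1.77-fold larger in 1CT-A (log2 difference 0.82, SE 0.09, exact permutation p = 0.1, adjusted 0.12). The ratio of inhibitor to late activator, FBXO5 to FZR1, is 0.537, 0.467 and 0.284 in 1CT and 0.927, 1.00 and 0.858 in 1CT-A. It is 2.23-fold larger in 1CT-A with no overlap (log2 difference 1.16, SE 0.29, exact permutation p = 0.1, adjusted 0.12), and the log2 difference runs from 0.89 to 1.35 when each library is left out. For FBXO5 against CDC20 the ratios overlap, with 0.129, 0.0951 and 0.0627 in 1CT and 0.107, 0.126 and 0.114 in 1CT-A (log2 difference 0.34, SE 0.31, exact permutation p = 0.5, adjusted 0.5). That difference is 0.06 without 1CT replicate 3 and 0.58 without 1CT replicate 1.

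The log2 fold change of UBE2C is larger than that of UBE2S. Their ratio, which compares the pair within each library, is 0.412, 0.412 and 0.322 in 1CT and 0.477, 0.530 and 0.661 in 1CT-A, 1.45-fold larger with no overlap (log2 difference 0.54, SE 0.18, exact permutation p = 0.1, adjusted 0.12). Summed over the 5 core subunits among the 10 genes, the level is 469.6, 476 and 444 CPM in 1CT and 541, 557 and 559 CPM in 1CT-A, a mean of 463 ± 16.8 against 552 ± 9.72 CPM. Most of the sum is ANAPC11 (mean 204 CPM in 1CT and 217 CPM in 1CT-A) and CDC27 (158 and 226 CPM). The fall of CDC16 hardly shows in it, and the sum does not measure the complex. Relative to that sum, CDC20 goes from 0.233 ± 0.0239 to 0.389 ± 0.0206 (log2 difference 0.74, SE 0.10) and UBE2C from 0.221 ± 0.0153 to 0.478 ± 0.0333 (log2 difference 1.11, SE 0.08). Both are separate between the lines, each with an exact permutation p of 0.1 and an adjusted p of 0.12.

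**Figure D4:**
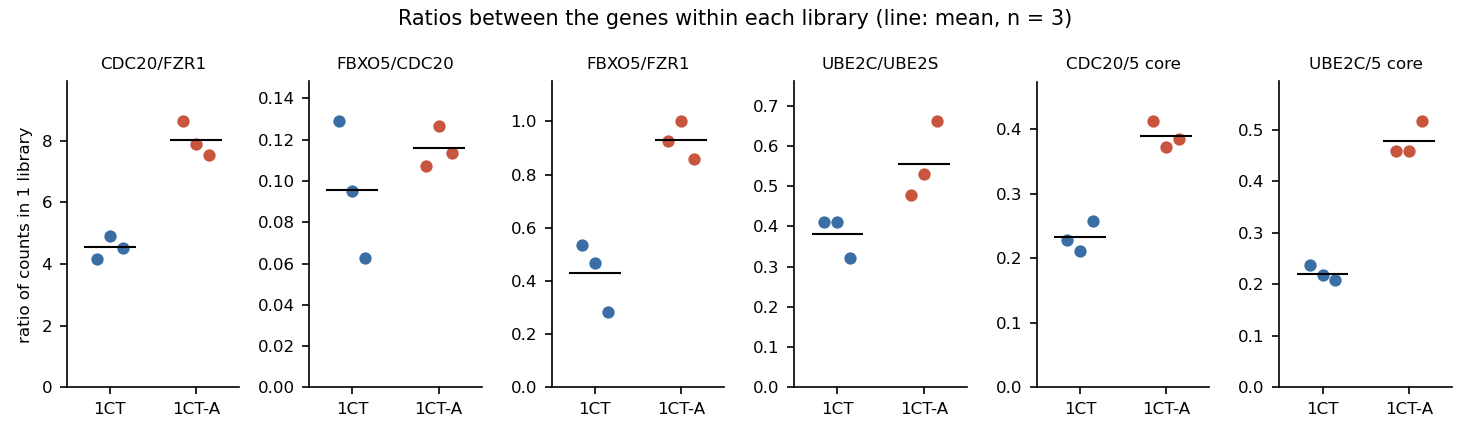
Ratio of the counts of 2 genes, or of a gene to the sum of the 5 core subunits, within each library (vertical axes, each from 0), with the 3 libraries of each line as points and their mean as a line. All ratios but FBXO5 to CDC20 are separate between 1CT and 1CT-A, and CDC20 to FZR1 goes from 4.17 to 4.92 in 1CT to 7.54 to 8.63 in 1CT-A.

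The other 9 subunits of the complex complete the picture of the core. ANAPC2, the cullin subunit, has 1 to 5 counts in a library and is not tested. Of the 8 tested, none is higher, 1 is lower and 7 do not pass, where 51.0% of all genes tested pass. Their median log2 fold change is 0.12, with a range from -0.37 to 0.58. ANAPC16, a small subunit, is the lower one and goes from 58.1 ± 1.13 to 46.3 ± 0.331 CPM (log2 fold change -0.37, SE 0.08, adjusted p = 0.00164, edgeR). ANAPC10, which helps the activators bind substrates, and CDC26, which stabilizes CDC16, have log2 fold changes of 0.58 and 0.52 with adjusted p of 0.0699 and 0.0522 (edgeR). These values are 0.32 and 0.30 without 1CT replicate 3. Over all 14 core subunits, 13 are tested, of which 2 are higher, 2 are lower and 9 do not pass, and their median log2 fold change is 0.13.

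The list of checkpoint proteins and other regulators has 9 genes, of which 5 are higher, none is lower and 4 do not pass. The share called is near the 51.0% of all genes tested, of which 25.0% are called higher, and the median log2 fold change is 0.73. BUB1B and MAD2L1 encode the checkpoint proteins BUBR1 and MAD2 that hold CDC20 inactive until chromosomes are attached. BUB1B goes from 11.8 ± 1.89 to 31.5 ± 1.01 CPM (log2 fold change 1.38, SE 0.12, adjusted p = 1.2e-06, edgeR) and MAD2L1 from 13.4 ± 2.73 to 35.05 ± 0.872 CPM (1.34, SE 0.13, adjusted p = 2.5e-06). TRIP13 and MAD2L1BP take the checkpoint complex apart. TRIP13 goes from 17.0 ± 3.14 to 37.6 ± 0.391 CPM (1.10, SE 0.12, adjusted p = 7.0e-06, edgeR) and MAD2L1BP from 30.1 ± 3.64 to 41.0 ± 1.62 CPM (0.41, SE 0.10, adjusted p = 0.00386). USP44, a deubiquitinase that acts on CDC20, is higher by 1.12 on the log2 scale. BUB3, FBXO43, UBE2D1 and CUEDC2 do not pass, with values of 0.14, 0.73, 0.15 and -0.16.

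Among 20 genes for proteins that the complex marks for destruction, 17 are higher, none is lower and 3 do not pass, beside 25.0% higher and 26.0% lower among all genes tested. This list, like the others, was written with earlier results of these data known, so the count is a description only. The median log2 fold change is 0.90. CCNA2, cyclin A2, goes from 72.2 ± 10.7 to 173 ± 1.17 CPM (log2 fold change 1.22, SE 0.09, adjusted p = 3.4e-07, edgeR). PLK1, a mitotic kinase whose activity also leads to the destruction of FBXO5, goes from 45.0 ± 2.91 to 102 ± 11.6 CPM (1.14, SE 0.10, adjusted p = 7.4e-07). The smallest log2 fold changes among the called substrates are 0.33 for CKAP2, a spindle protein (24.3 ± 3.55 to 31.4 ± 2.46 CPM, SE 0.12, adjusted p = 0.0321, edgeR), and 0.41 for CDC6, a replication licensing factor (33.2 ± 1.65 to 45.2 ± 4.57 CPM, SE 0.10, adjusted p = 0.00405). CKAP2 is no longer called without 1CT replicate 3 (0.23), 1CT-A replicate 1 (0.28) or 1CT-A replicate 2 (0.31), with DESeq2 or with upper-quartile normalization. CCNB1, cyclin B1, is higher by 0.75, while PTTG1, securin, does not pass, at 0.16 (adjusted p = 0.102, edgeR). Both are classic targets of CDC20 as proteins, and only their RNA is counted here. The PTTG1 libraries do not overlap between the lines, and it is called in 1 of 15 refits, with library size only (adjusted p = 0.0484, edgeR). TK1 and HMMR also do not pass, at 0.18 and 0.22.

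SCF is a related ubiquitin ligase, and its F-box protein BTRC targets FBXO5. Of 8 SCF genes, 2 are higher, 2 are lower and 4 do not pass, where 51.0% of all genes tested pass, and the median log2 fold change is -0.02. SKP2, an SCF F-box protein that the complex also marks for destruction, is counted in the list of substrates and not here, and is higher by 0.96 (adjusted p = 2.1e-06, edgeR). The higher genes are CKS1B, which helps SKP2 to bind its substrates (149.99 ± 7.59 to 307 ± 13.9 CPM, log2 fold change 0.99, SE 0.07, adjusted p = 1.3e-07, edgeR), and CCNF, cyclin F, itself an F-box protein (43.3 ± 5.74 to 81.8 ± 4.70 CPM, 0.88, SE 0.10, adjusted p = 1.3e-05). BTRC goes from 25.0 ± 2.70 to 18.0 ± 0.852 CPM (-0.51, SE 0.11, adjusted p = 0.00219, edgeR) and the adaptor SKP1 from 371 ± 5.11 to 278 ± 8.65 CPM (-0.46, SE 0.06, adjusted p = 5.1e-05).

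The DREAM and MuvB subunits with FOXM1, MYBL2 and the NF-Y subunits make up a further list of 15 genes. Not every protein on this list binds a CHR or CCAAT element itself. In it 10 are higher, none is lower and 5 do not pass, beside 25.0% higher and 26.0% lower among all genes tested, and the median log2 fold change is 0.55. The list was also written with earlier results of these data known, so the count is a description only. LIN9 goes from 3.89 ± 0.967 to 11.8 ± 3.12 CPM (log2 fold change 1.56, SE 0.24, adjusted p = 1.3e-04, edgeR) and LIN52 from 4.17 ± 0.784 to 9.28 ± 1.42 CPM (1.12, SE 0.20, adjusted p = 4.7e-04), both subunits of MuvB at low levels. FOXM1 and MYBL2, the factors that join MuvB to activate mitotic genes, are higher by 0.85 and 0.69. RBL1, LIN54, E2F4 and TFDP1 are higher as well, by 1.02, 0.98, 0.56 and 0.55. RBL2, LIN37, RBBP4 and TFDP2 do not pass, at 0.13, -0.28, -0.06 and -0.08. NFYC goes from 46.0 ± 5.66 to 63.5 ± 4.36 CPM (0.43, SE 0.10, adjusted p = 0.00271, edgeR) and NFYB from 31.0 ± 2.32 to 45.9 ± 3.52 CPM (0.53, SE 0.09, adjusted p = 4.5e-04), and NFYA is at 0.32 (adjusted p = 0.0566, edgeR).

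**Figure D5:**
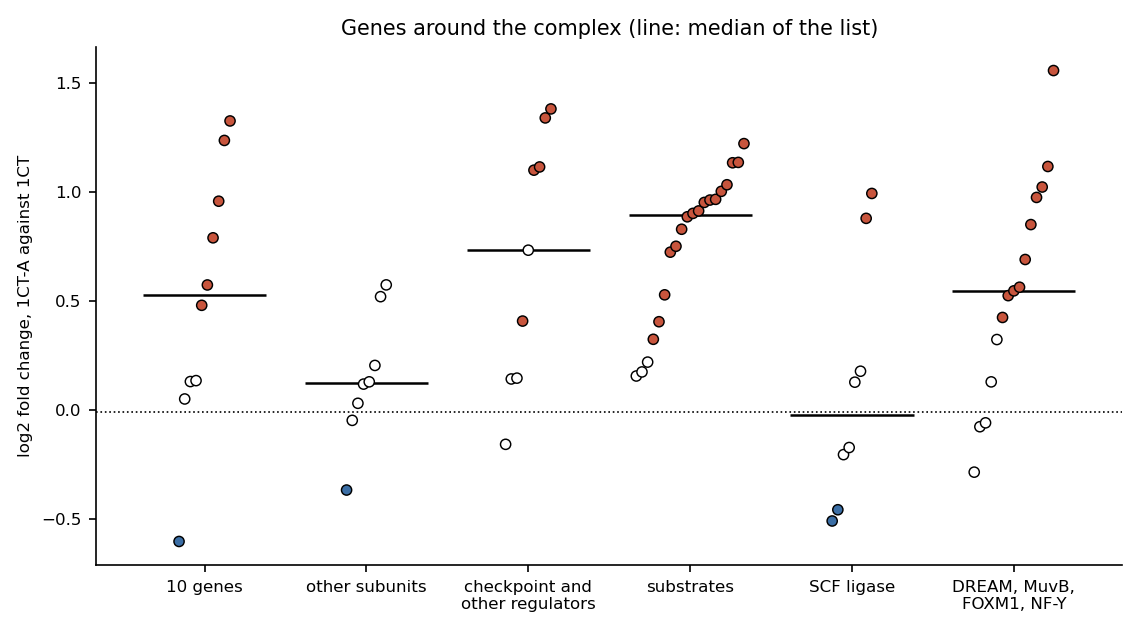
TMM-normalized log2 fold change between 1CT-A and 1CT (positive where 1CT-A is higher, vertical axis) for each gene tested in 6 lists, with the median of each list as a line and the median of all genes tested as a dotted line. Filled points pass the test (red higher, blue lower), and the list medians are 0.53 for the 10 genes, 0.12 for other subunits, 0.73 for checkpoint proteins and other regulators, 0.90 for substrates, -0.02 for SCF genes and 0.55 for the DREAM, MuvB, FOXM1 and NF-Y genes.

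The genes with the most similar pattern over the 6 libraries are found by the distance between centred log2(CPM + 1) values, over the 8223 genes whose mean level is 10 CPM or more. This is a description, and the points of each pattern share libraries and depth. CDC20 is closest to NEK2 (distance 0.058), a mitotic kinase that is also on the list of substrates, followed by HIST1H4C (0.10), a histone H4 gene, and PAGR1 (0.10). FBXO5 is closest to TTK (0.25), the checkpoint kinase MPS1, NUP35 (0.27), a nucleoporin, and URB2 (0.30). UBE2C is closest to MME (0.16), a membrane peptidase, LMNB1 (0.19), lamin B1, and TMPO (0.20), a lamin-binding protein. Among the 10 genes themselves, UBE2S is the closest to CDC20, at rank 74 (distance 0.26). UBE2C and FBXO5 lie 0.48 apart, with UBE2C at rank 45 from FBXO5 and FBXO5 at rank 120 from UBE2C. CDC20 and UBE2C lie 0.57 apart, with CDC20 at rank 198 from UBE2C and UBE2C at rank 712 from CDC20. CDC20 and FBXO5 lie 0.76 apart, with CDC20 at rank 383 from FBXO5 and FBXO5 at rank 1516 from CDC20. ANAPC1 (rank 913) and CDC27 (rank 1289) are nearer to CDC20 than FBXO5 is. CDC16 is at rank 7412 from CDC20, 7483 from FBXO5 and 7416 from UBE2C.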

How the data were processed

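Bulk RNA of 3 1CT and 3 1CT-A libraries is analysed. For each library, the authors deposited whole-number read counts per gene symbol, neither normalized nor pooled. Per the labels, libraries come from Trizol-extracted RNA with a QuantSeq 3′ kit. The study's methods, in a section on bulk RNA sequencing, instead name an RNA-spin kit and a cDNA microarray. The deposited whole-number counts were taken as 3′ sequencing counts, so levels of different genes are not taken as relative amounts of RNA. Ratios of genes are read only as differences between the lines, and marker sums are set side by side as a description. The submitters' processing notes list Bowtie2, edgeR and hg19 without a role, and the counter, annotation and strand setting are not given in the sources used here. Counts of 286 repeated symbols are summed.

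Python 3.11.15 is used for CPM, and edgeR 4.0.16 (R 4.3.3) for TMM normalization, filterByExpr (minimum count 10), the quasi-likelihood test and Benjamini-Hochberg adjustment, tested on simulated data. Alternatives are other normalizations, filters and thresholds, DESeq2 1.42.0, limma-voom 3.58.1, a replicate block, the largest of repeated rows and leaving out each library. Positions are from GENCODE release 44 (GRCh38) and describe that annotation, not the authors' counting. The 10 genes and all lists were chosen with earlier results of these data known. In each list, values are given for the 2 called genes with the largest and the 2 with the smallest log2 fold change whose libraries do not overlap, and other list genes are named by role after their values were seen. The single cell data are not analysed here.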

Additional observations from a re-analysis of the deposited data

How the results depend on the processing

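Of 150 refits of the 10 genes, 148 keep the direction and the side of the threshold. The exceptions are ANAPC11, at -0.0054 with upper-quartile normalization, and ANAPC5, at 0.20 and called without 1CT replicate 3, and for both the cause was not tested. The study's cutoffs, a 2-fold difference with p under 0.01 before adjustment, demand a larger change and are put here on the edgeR p, not on the study's t-test. With them the calls are 1676 over all genes (6388 otherwise), 2 of the 10 genes (7), 0 other subunits (1), 5 substrates (17), 0 SCF genes (4) and 3 DREAM and related genes (10). The call of other subunits, 1 in the analysis reported, is 2 with library size only, 2 with DESeq2, 2 with limma-voom, 3 without a filter on low counts and 3 with the replicate block, and runs from 1 to 3 when each library is left out (3 without 1CT replicate 1, 2 without 1CT-A replicate 1). Same-numbered replicates show correlations of -0.15, 0.21 and -0.13 over 8231 genes, within the range of the other pairs (-0.28 to 0.33). No pairing by number is seen, but so few libraries cannot exclude it. The replicate block calls 6091 genes, 6000 of them shared. Higher genes make up 49.0% of calls, 53.3% with library size only and 42.3% with upper-quartile normalization, which shifts the median log2 fold change by -0.06. The standard error of FBXO5, 0.17, is larger than that of CDC20, 0.08, or UBE2C, 0.09. An interval that spans 0 for FZR1, ANAPC5 and ANAPC11 does not show that they are equal between the lines.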
